A study of Mus musculus with 16 samples.

Results

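The 10 genes described here belong to the BCL2 family, which governs the mitochondrial route of cell death. They were taken by name from a list: Bcl2, Bcl2l1, Mcl1, Bcl2l11, Bbc3, Pmaip1, Bid, Bad, Bax and Bak1. All 10 were among the 13652 genes counted, and none was lost to a filter on low counts. Their RNA was sequenced through a doxycycline course in AML246, a leukaemia line from mouse acute myeloid disease, grown in IMDM medium with 10% FCS and interleukin-3.

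Doxycycline at 0.1 µg/mL was added on day 0 and taken away on day 12. The series title describes this as restoring and then knocking down PU.1, an ETS factor of blood cells and the product of Spi1. There were 16 libraries in 8 groups of 2, lettered A and B: untreated cells (day 0), cells given doxycycline for 4, 8 or 12 days, Cd11b-high cells sorted on day 12, and cells 4, 8 or 12 days after withdrawal (course days 16, 20 and 24). Total viable cells were sorted for all groups except the Cd11b-high group. All groups come from the same line, and neither its construct for doxycycline control nor its Trp53 status is given by the labels. The labels do not say whether A and B were separate cultures, so p-values measure a spread between libraries that may be technical.

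Members of the BCL2 family meet at the outer membrane of the mitochondrion. The survival proteins BCL2, BCL-XL (from Bcl2l1) and MCL1 hold the others in check. The BH3-only proteins BIM (Bcl2l11), PUMA (Bbc3), NOXA (Pmaip1), BID and BAD carry stress and signalling inputs, and BAX and BAK (Bak1) are the effectors that open the membrane and release cytochrome c. Myeloid cells are known for their need of MCL1. RNA levels do not give the amount or activity of these proteins, several of which are controlled by turnover, cleavage or phosphorylation.

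The schedule and the libraries were checked first. Library totals ran from 12962801 to 26509803 reads. Spi1 stood at 61.5 ± 6.69 normalised CPM (read counts scaled to library size with TMM factors, mean ± SD, n = 2 here and below) on day 0, 222 ± 4.72 on day 12 and 46.0 ± 12.5 after 12 days off. The progenitor receptor gene Kit stood at 125 ± 9.3 CPM on day 0 and 316 ± 0.083 on day 12, and the interleukin-3 receptor chain gene Csf2rb at 466 ± 83.4 and 1280 ± 39.1. Ptprc, the gene of the leukocyte antigen CD45, was near 0 on day 0, at 0.155 ± 0.011 CPM, and at 66.8 ± 1.91 on day 12. Mpo, the myeloperoxidase gene, went the other way, from 601 ± 21.9 CPM on day 0 to 30.3 ± 2.73 on day 12. It stood at 427 ± 57.8 CPM after 12 days off. Of the 8 listed identity genes that these belong to, 6 were called higher and 1 lower on day 12 than on day 0. Over all genes 30.0% were called higher and 33.4% lower. The 2 of 6 listed B cell markers with counts summed to between 1.3 and 4.2 CPM in every library. The 2 of 7 T and NK cell markers with counts summed to between 129 and 375 CPM, and the 4 of 7 erythroid markers to between 316 and 525. The 7 of 10 macrophage markers summed to 1320 to 1430 CPM on day 0, 1800 to 1820 on day 12 and 1250 to 1450 after 12 days off. Of these 7, 0 were called higher and 5 lower after 12 days off than on day 12 (median log2 fold -2.0). Over all genes 32.9% were called higher and 32.4% lower there. The sums of neutrophil, eosinophil, and basophil and mast cell markers moved more with the course. For the 6 of 10 basophil and mast cell markers with counts, the sum was 2310 to 2900 CPM on day 0. It was 548 to 613 on day 4, 1880 to 1900 on day 12 and 2070 to 2640 after 12 days off. The 11 of 12 listed neutrophil markers with counts summed to 166 to 185 CPM on day 0, 2500 to 3140 on day 4, 913 to 943 on day 12 and 85.1 to 101 after 12 days off. The 10 eosinophil markers summed to 2090 to 5230 CPM on day 0, 219 to 260 on day 4, 8590 to 9580 on day 12 and 4270 to 4350 after 12 days off. In bulk RNA, fewer cells of a kind and less RNA per cell cannot be told apart, and the part of cell state in the member values below was not tested.

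Library A of 12 days off stood apart by gene length. Genes were split into 5 equal classes by length. The median log2 deviation of the shortest class minus that of the longest was 1.1 in this library, against -0.47 to 0.41 in the other 15. It was 0.41 in both day 0 libraries, -0.36 and -0.34 on day 12, and 0.19 in library B of 12 days off. The trend also followed the groups, since the median fold of day 12 against day 0 was -0.42 (log2) in the shortest class and 0.35 in the longest. This matters for the members because Bax (869 bases) and Bad (1452) lie in the shortest class and Bcl2 (7749) and Bcl2l11 (5037) in the longest. Values with the length trend removed from each library, a step added after seeing the data, are therefore given for the members whose calls they change.

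**Figure D1:**
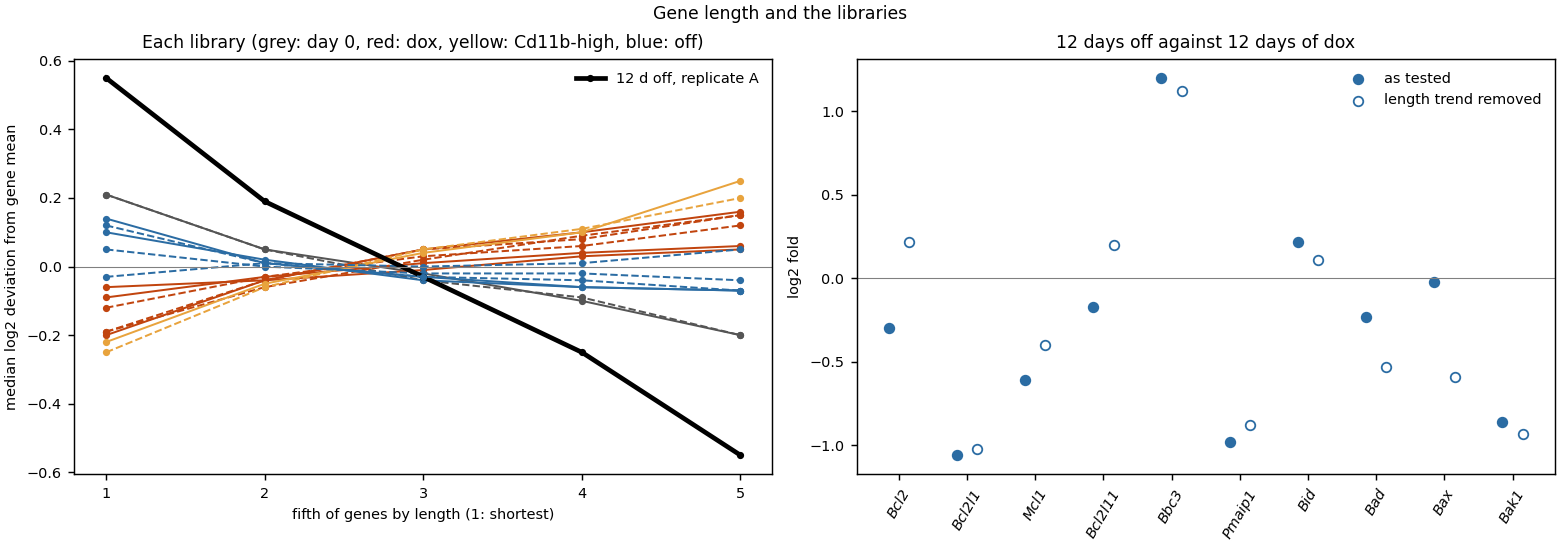
Median log2 deviation of genes from their mean over 16 libraries, by length class, in each library (left). The right panel shows the log2 fold of each member for 12 days off against day 12, as tested and with the length trend removed. Library A of 12 days off has the steepest slope, with a gap of 1.1 between the shortest and longest classes.

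Promoter sequences are shown for 4 members that differ in their course, to set the letters that ETS factors such as PU.1 read beside the expression values. The windows are the 250 bases before a RefSeq start on GRCm38.p6, written 5′ to 3′ on the strand of the gene. Capitals mark GGAAGT or its reverse complement ACTTCC. Bak1 rose throughout doxycycline (chr17:27028628-27028877, minus strand). Bcl2l1 also rose (its second listed start, chr2:152830718-152830967, minus strand). Bad was not called on doxycycline by the edgeR fit (its second listed start, chr19:6942312-6942561, plus strand), and Bcl2 fell (chr1:106714291-106714540, minus strand).
Bak1: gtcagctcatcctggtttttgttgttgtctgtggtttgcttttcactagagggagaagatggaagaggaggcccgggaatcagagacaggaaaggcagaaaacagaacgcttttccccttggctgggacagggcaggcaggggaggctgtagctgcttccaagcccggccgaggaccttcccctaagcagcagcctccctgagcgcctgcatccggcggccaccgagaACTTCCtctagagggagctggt
Bcl2l1: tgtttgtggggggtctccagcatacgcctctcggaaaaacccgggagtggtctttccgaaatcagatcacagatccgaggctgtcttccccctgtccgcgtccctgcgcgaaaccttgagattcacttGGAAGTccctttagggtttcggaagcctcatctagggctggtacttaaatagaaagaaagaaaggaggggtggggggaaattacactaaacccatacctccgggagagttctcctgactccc
Bad: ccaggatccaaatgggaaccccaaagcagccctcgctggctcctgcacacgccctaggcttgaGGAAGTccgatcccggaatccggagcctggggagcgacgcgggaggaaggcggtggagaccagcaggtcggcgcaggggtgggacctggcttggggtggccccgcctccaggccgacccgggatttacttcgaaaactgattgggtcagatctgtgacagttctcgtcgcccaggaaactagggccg
Bcl2: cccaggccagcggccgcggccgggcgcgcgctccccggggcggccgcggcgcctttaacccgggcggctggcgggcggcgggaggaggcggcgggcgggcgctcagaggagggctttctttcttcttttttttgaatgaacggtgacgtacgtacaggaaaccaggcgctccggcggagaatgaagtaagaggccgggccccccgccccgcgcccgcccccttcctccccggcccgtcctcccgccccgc

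RefSeq gave such windows for 9 of the 10 members, with 15 start sites between them. GGAAGT, searched on both strands, was found at 4 of the 15 sites, in Bak1, Bcl2l1 and at both Bad starts. Among the listed Bcl2l1 starts only the one shown held it. No start of Mcl1 or Bcl2l11, which also rose on doxycycline, held it, nor did those of Bcl2 and Bid, which fell. GGAAGT is in 19.7% of all 32841 promoter windows of this length. The longer GAGGAAGT, which contains GGAAGT and resembles sites that PU.1 binds, was at 2 sites, 22 bases before the Bak1 start and 189 bases before the second Bad start, against 2.44% of all windows. The GC box GGGCGG was at 10 sites in 7 members, against 32.7% of all windows, and the Bcl2 window and the third Bbc3 window each held 7 matches. The E-box CACGTG was at one start each of Bbc3 and Bax (6.02% of all windows), and TTGCNNAA, a C/EBP-like motif, at Bid (9.57%). Matches are descriptions of letters and are no measure of binding. Of the 2 members with the longer motif, Bak1 was called on doxycycline against day 0. Against day 0, Bad on doxycycline was called only on day 4 and only with the length trend removed.

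Over doxycycline, 7 of the 10 members were called at each time point at an edgeR adjusted p under 0.05, with 5 higher and 2 lower than day 0. Over all genes, 59.2% were called on day 4 (28.2% higher, 31.0% lower), 57.3% on day 8 (27.0% higher, 30.2% lower) and 63.4% on day 12 (30.0% higher, 33.4% lower). The 7 called members are thus near the background, and the 5 that rose stand beside a background in which rises are somewhat fewer than falls. The member median log2 fold was 0.44, 0.41 and 0.32 at these times, beside -0.05, -0.05 and -0.07 over all genes. These comparisons share the day 0 libraries. Among the members that changed, Bcl2l1, Mcl1, Bcl2l11, Pmaip1 and Bak1 were higher at all 3 times, and Bcl2 and Bid were lower.

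**Figure D2:**
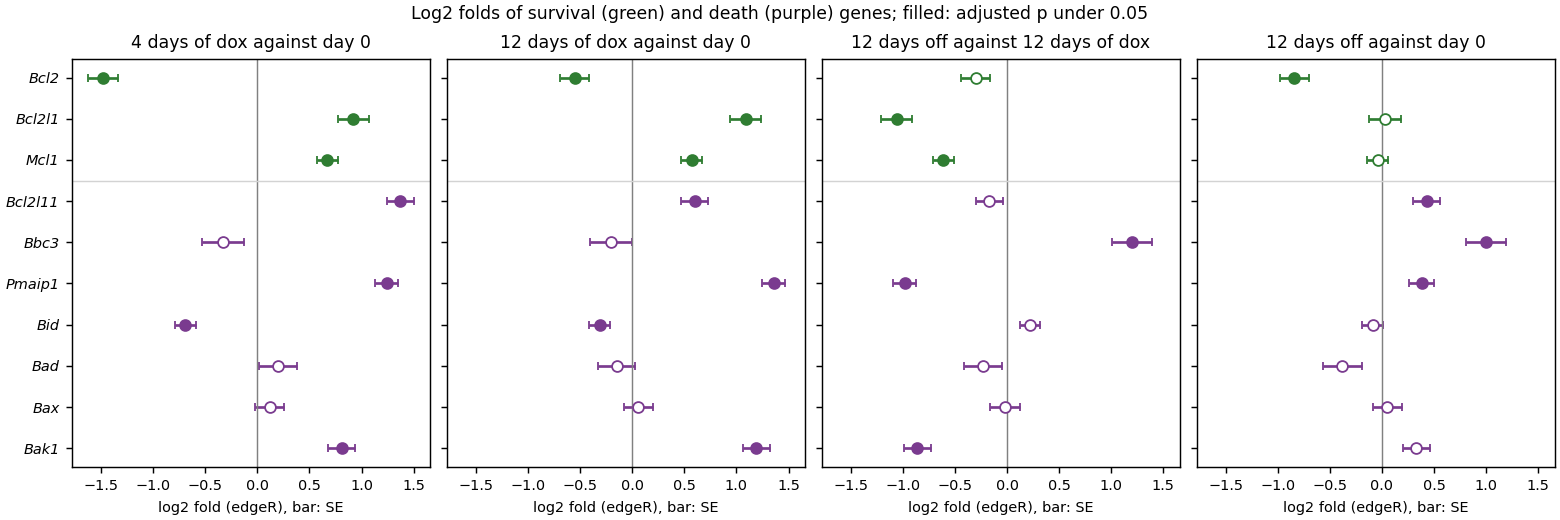
Log2 fold of each member in the comparisons of the course, with bars of 1 standard error of the edgeR fit. On doxycycline Bcl2 lies below 0 and Pmaip1 and Bak1 above it, and after 12 days off Bbc3 has the highest fold against day 12, at 1.20.

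Bcl2, the founding survival gene of the family, fell on doxycycline and was lowest on day 4. Bcl2 is Entrez gene 12043, on chromosome 1 from 106538176 to 106714290 (GRCm38). Its level was 90.9 and 78.6 CPM in the day 0 libraries, then 29.8 and 30.9 on day 4, 47.5 and 51.7 on day 8 and 57.6 and 58.5 on day 12. No library on doxycycline reached the lower day 0 library. On day 4 it was 2.80-fold lower than day 0 (log2 fold -1.48, SE 0.14, edgeR adjusted p = 4.2e-07), and on day 12 it was 1.46-fold lower (log2 fold -0.55, SE 0.14, edgeR adjusted p = 0.0026). Between day 4 and day 12 Bcl2 rose again, by a log2 fold of 0.94 (SE 0.14, edgeR adjusted p = 0.00022). In that comparison, which was added after the values were seen, 4 members were called, 3 higher and 1 lower, against 27.0% of all genes (14.7% higher, 12.3% lower). The count was 2 with library size alone and without day 4 library A, day 12 library A or day 12 library B.

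After withdrawal Bcl2 did not return to its day 0 level. It stood at 48.3 and 52.2 CPM after 4 days off, 55.4 and 56.5 after 8, and 38.8 and 55.6 after 12. All 6 of these libraries lay below both day 0 libraries. After 12 days off it was 1.80-fold lower than day 0 (log2 fold -0.84, SE 0.14, edgeR adjusted p = 0.00019), and the log2 fold was -0.61 without library A of that time and -0.68 with the length trend removed. Against day 12 the change was not called (log2 fold -0.30, SE 0.14, edgeR adjusted p = 0.067). That fold was -0.06 without library A of 12 days off and -0.55 (adjusted p = 0.0002) without library B, and it turned to 0.22 (adjusted p = 0.023) with the length trend removed. No direction is therefore given for Bcl2 between day 12 and 12 days off.

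Bcl2l1, which encodes BCL-XL, moved the other way. Bcl2l1 is Entrez gene 12048, on chromosome 2 from 152758732 to 152833803 (GRCm38). It had 23.4 and 18.1 CPM on day 0, 38.3 and 40.4 on day 4, 32.5 and 36.7 on day 8 and 45.9 and 43.0 on day 12. Every doxycycline library was above both day 0 libraries. On day 12 it was 2.13-fold higher than day 0 (log2 fold 1.09, SE 0.15, edgeR adjusted p = 1.5e-05). It then had 27.7 and 30.9 CPM after 4 days off, 22.2 and 25.7 after 8, and 24.2 and 18.4 after 12. The fall was called from 4 days off (log2 fold -0.60 against day 12, SE 0.14, edgeR adjusted p = 0.0049), though not there without library A of that time (-0.52, adjusted p = 0.066). After 12 days off the level was 2.09-fold lower than day 12 (log2 fold -1.06, SE 0.15, edgeR adjusted p = 1.6e-05). That log2 fold was -1.27 without library A of 12 days off. Bcl2l1 after 12 days off was not called against day 0 (log2 fold 0.03, SE 0.15, edgeR adjusted p = 0.89), and the libraries of the 2 groups overlapped.

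Mcl1, whose short-lived protein is a main survival factor of granulocyte precursors, had the highest CPM of the 10, a scale that does not correct for length. Mcl1 is Entrez gene 17210, on chromosome 3 from 95656944 to 95663179 (GRCm38). It had 212 and 231 CPM on day 0, 359 and 347 on day 4, 342 and 368 on day 8 and 332 and 325 on day 12. The rise was in place by day 4 and Mcl1 was not called between day 4 and day 12 (log2 fold -0.10, SE 0.10, edgeR adjusted p = 0.45). On day 12 it was 1.48-fold higher than day 0 (log2 fold 0.57, SE 0.10, edgeR adjusted p = 0.00012). It had 250 and 242 CPM after 4 days off, 223 and 219 after 8 and 203 and 226 after 12. At the last time it was 1.53-fold lower than day 12 (log2 fold -0.61, SE 0.10, edgeR adjusted p = 5.6e-05) and was -0.04 from day 0 on the log2 scale (SE 0.10, edgeR adjusted p = 0.74).

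**Figure D3:**
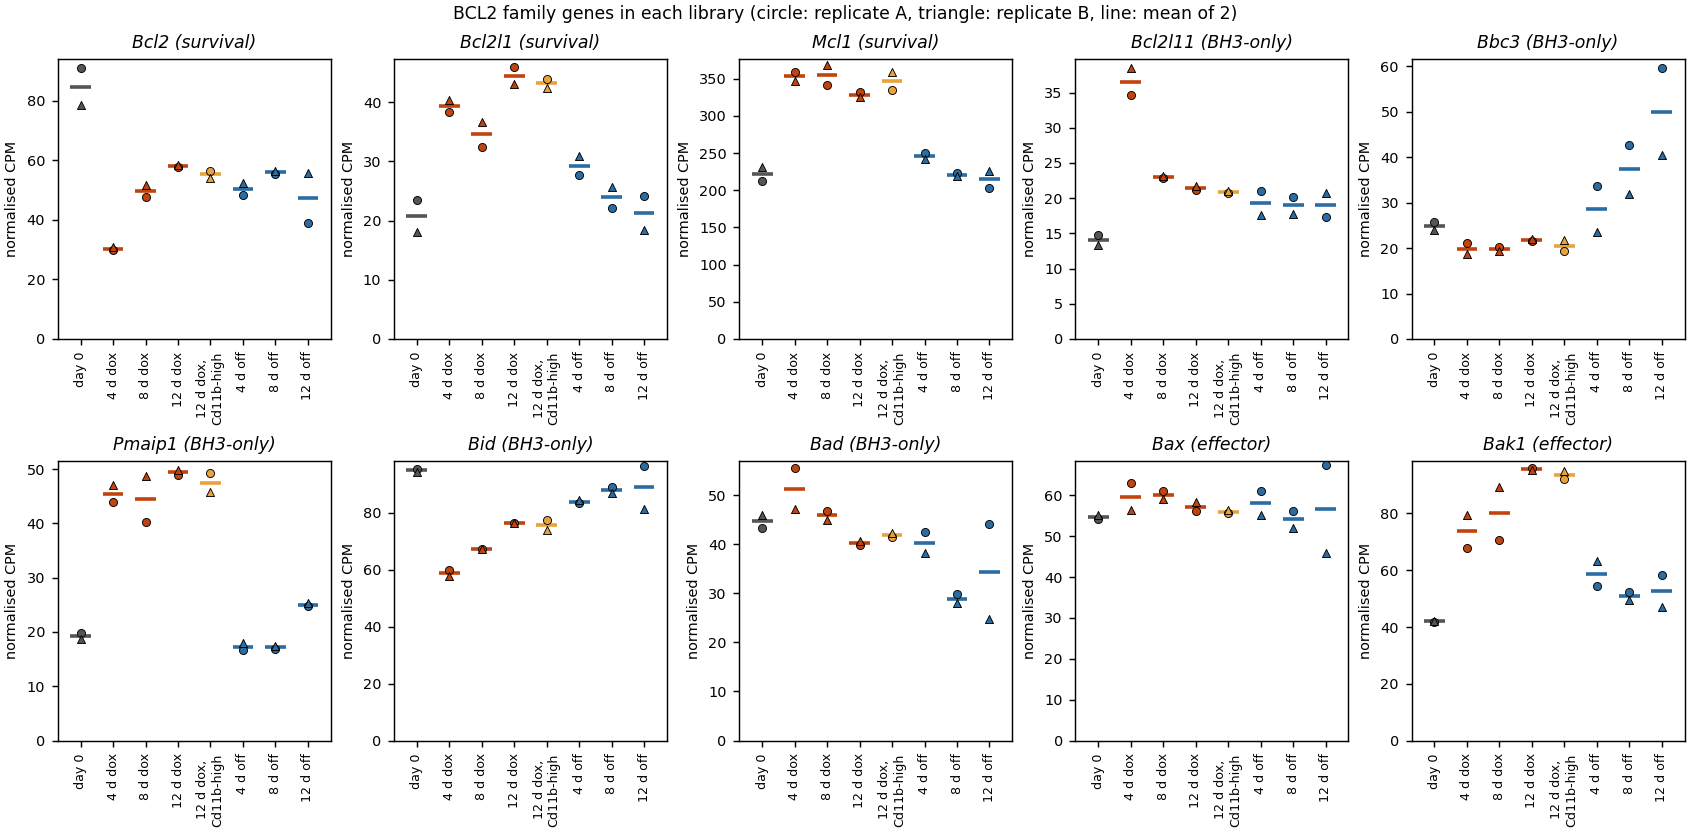
Normalised CPM of each of the 10 members in every library, by group, with circles for library A, triangles for B and a line at the mean of 2. Bcl2 is lowest on day 4, at 30.3 CPM, and Bbc3 is highest after 12 days off, at 59.5 and 40.5 CPM.

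Among the BH3-only genes, Pmaip1 and Bcl2l11 rose on doxycycline, with different timing. Pmaip1, which encodes NOXA, a binder of MCL1, had 19.9 and 18.7 CPM on day 0, 43.9 and 47.0 on day 4, 40.3 and 48.8 on day 8 and 48.9 and 49.9 on day 12. All 6 doxycycline libraries lay above both day 0 libraries. It was 2.56-fold higher on day 12 than on day 0 (log2 fold 1.36, SE 0.11, edgeR adjusted p = 1.2e-07). It then fell within 4 days of withdrawal to 16.7 and 17.9 CPM, 2.86-fold below day 12 (log2 fold -1.51, SE 0.11, edgeR adjusted p = 2.3e-07). It stayed at 16.8 and 17.5 CPM after 8 days and stood at 24.7 and 25.4 after 12. The last values lay above both day 0 libraries, with a log2 fold of 0.38 (SE 0.12, edgeR adjusted p = 0.015), a call that was lost with the 4 libraries alone (adjusted p = 0.23) and without day 0 library B (adjusted p = 0.081).

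Bcl2l11, which encodes BIM, a BH3-only protein that binds all the survival members, rose early and then lost much of the rise. Bcl2l11 is Entrez gene 12125, on chromosome 2 from 128126038 to 128162547 (GRCm38). It had 14.8 and 13.4 CPM on day 0, 34.6 and 38.5 on day 4, 22.8 and 23.1 on day 8 and 21.2 and 21.7 on day 12. The day 4 libraries were the highest of all 16. On day 4 it was 2.59-fold higher than day 0 (log2 fold 1.37, SE 0.13, edgeR adjusted p = 5.7e-07), and from day 4 to day 12 it fell by 0.77 on the log2 scale (SE 0.13, edgeR adjusted p = 0.00052). So the highest Bcl2l11 and the lowest Bcl2 values were in the same day 4 libraries. After withdrawal it held between 17.3 and 21.0 CPM in 6 libraries, each above both day 0 libraries. Against day 0, its log2 fold at 12 days off was 0.43 (SE 0.13, edgeR adjusted p = 0.018), which was lost with the 4 libraries alone (adjusted p = 0.22) and without day 0 library B (adjusted p = 0.11). Its gene overlaps Acoxl, which had a mean of 0.65 CPM.

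Bbc3, which encodes PUMA, a BH3-only protein induced by p53, was not called on doxycycline and rose after withdrawal. Bbc3 is Entrez gene 170770, on chromosome 7 from 16308398 to 16318334 (GRCm38). It had 25.8 and 24.0 CPM on day 0, 21.0 and 18.7 on day 4, 20.2 and 19.4 on day 8 and 21.5 and 21.9 on day 12. It then had 33.7 and 23.5 CPM after 4 days off, 42.7 and 31.9 after 8, and 59.5 and 40.5 after 12. Both libraries of 8 and of 12 days off lay above every library on doxycycline and on day 0, and library A was the higher at each time off. The level after 12 days off exceeded day 12 2.30-fold (log2 fold 1.20, SE 0.19, edgeR adjusted p = 6.4e-05), 0.90 (adjusted p = 0.00029) without library A and 1.12 with the length trend removed. Against day 0 the log2 fold was 1.0 (SE 0.19, edgeR adjusted p = 0.00075), and 0.70 without library A. After 8 days off the log2 fold against day 12 was 0.78 (SE 0.19, edgeR adjusted p = 0.0029), and 0.56 (adjusted p = 0.056) without library A of that time. After 4 days off it was 0.40 (SE 0.19, edgeR adjusted p = 0.12), and was called without library B of that time (0.63, adjusted p = 0.033) and with library size alone (0.52, adjusted p = 0.047).

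Trp53, the gene of p53, was set beside Bbc3, with Cdkn1a, a cell-cycle inhibitor gene, and Mdm2, the gene of the ligase that removes p53, both p53 targets. Trp53 had 97.4 and 80.8 CPM on day 0, 50.7 and 53 on day 12, and 219 and 185 after 12 days off. At 12 days off its log2 fold was 1.96 against day 12 (SE 0.15, edgeR adjusted p = 5.7e-08) and 1.18 against day 0 (SE 0.15, edgeR adjusted p = 2.4e-05). Cdkn1a had 30.2 and 24.1 CPM on day 0, 57.8 and 59.3 on day 12, and 99.0 and 75.5 after 12 days off. Cdkn1a was called on day 12 against day 0, where Bbc3 was not (log2 fold 1.1, SE 0.22, edgeR adjusted p = 0.00049). Mdm2 had 232 and 221 CPM on day 0, 206 and 197 on day 12, and 151 and 175 after 12 days off, lower than day 0 by a log2 fold of -0.48 (SE 0.10, edgeR adjusted p = 0.0017, and 0.12 with the 4 libraries alone).

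**Figure D4:**
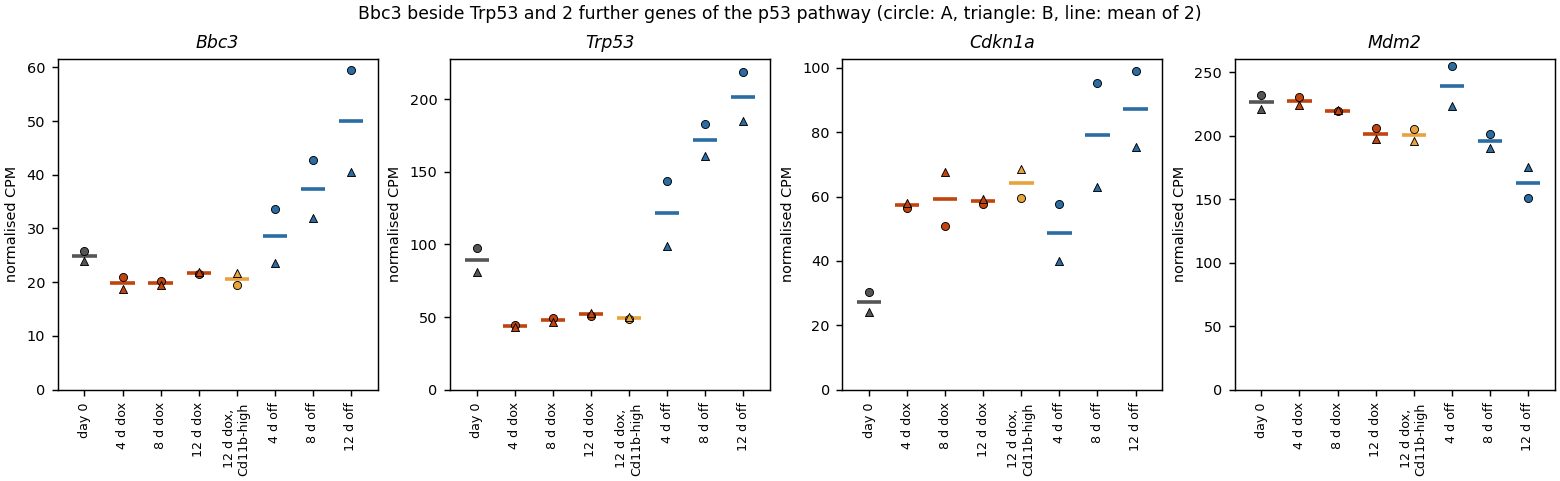
Normalised CPM of Bbc3, Trp53, Cdkn1a and Mdm2 in every library (circles A, triangles B, line at the mean of 2). Bbc3 and Trp53 have their highest means after 12 days off, where Bbc3 stands at 59.5 and 40.5 CPM and Trp53 at 219 and 185, while Mdm2 has its lowest mean there, at 163 CPM.

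Bid, which encodes a BH3-only protein activated by caspase-8 cleavage, fell on doxycycline. Bid is Entrez gene 12122, on chromosome 6 from 120893119 to 120917062 (GRCm38). It had 95.3 and 94.5 CPM on day 0, 59.9 and 57.8 on day 4, 67.2 and 67.4 on day 8 and 76.3 and 76.5 on day 12. On day 4 it was 1.61-fold lower than day 0 (log2 fold -0.69, SE 0.10, edgeR adjusted p = 2.1e-05). On day 12 the log2 fold was -0.31 (SE 0.10, edgeR adjusted p = 0.0099), and the adjusted p was 0.055 or 0.053 without library A or B of day 12. It had 83.5 and 84.4 CPM after 4 days off, 89.1 and 87.1 after 8, and 96.4 and 81.5 after 12. From day 4 to day 12 the log2 fold was 0.38 (SE 0.10, edgeR adjusted p = 0.0096), a call lost with library size alone (adjusted p = 0.063) and whenever 1 of the 4 libraries was left out (0.06 to 0.067). No time off was called against day 12 by the edgeR fit, with log2 folds of 0.14, 0.21 and 0.22 (SE 0.10 each, adjusted p = 0.28, 0.078 and 0.054). With library size alone all 3 were called (0.25, 0.35 and 0.32, adjusted p = 0.04, 0.0046 and 0.0061). After 8 days off Bid was also called with the 4 libraries alone (adjusted p = 0.0049) and with the length trend removed (0.18, adjusted p = 0.034), and after 12 days off without library B (0.37, adjusted p = 0.00087) but not without library A (0.09, adjusted p = 0.35). Against day 0, the fold after 12 days off was -0.09 (SE 0.10, edgeR adjusted p = 0.45), and -0.22 (adjusted p = 0.048) without library A.

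Bad, which encodes a BH3-only protein held inactive by phosphorylation under growth factor signals, was not called at any time on doxycycline by the edgeR fit, but was called higher on day 4 with the length trend removed (log2 fold 0.37, adjusted p = 0.018). Bad is Entrez gene 12015, on chromosome 19 from 6941861 to 6951905 (GRCm38). It ranged from 39.8 to 55.5 CPM in the 6 doxycycline libraries of total cells, around the 43.4 and 46.0 of day 0. After 4 days off it had 42.5 and 38.2 CPM, and after 8 days off 29.8 and 28.1, below day 12 by a log2 fold of -0.48 (SE 0.18, edgeR adjusted p = 0.039), a call lost whenever 1 library was left out. After 12 days off the libraries split, at 44.2 CPM in A and 24.7 in B. The log2 fold against day 12 was -0.23 (SE 0.18, edgeR adjusted p = 0.29), -0.70 (adjusted p = 6.4e-05) without library A and 0.17 without library B, and -0.53 (adjusted p = 0.0015) with the length trend removed. Against day 0 it was -0.38 (SE 0.19, edgeR adjusted p = 0.11), -0.85 (adjusted p = 2.8e-05) without library A, 0.06 without library B and -0.51 (adjusted p = 0.0035) with the length trend removed. With that trend removed Bad was also called lower on day 12 than on day 4 (log2 fold -0.34, adjusted p = 0.039). The same call was made with the 4 libraries alone (-0.37, edgeR adjusted p = 0.012). Bad overlaps Gpr137, which had a mean of 40.8 CPM, and the labels do not say whether strand was used in counting, so reads of this pair may not be told apart.

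Of the effector genes, Bak1 rose on doxycycline and Bax was not called by the edgeR fit. Bak1 is Entrez gene 12018, on chromosome 17 from 27019812 to 27028627 (GRCm38). Bak1 had 41.9 and 42.0 CPM on day 0, 67.9 and 79.5 on day 4, 70.7 and 89.3 on day 8 and 95.9 and 95.3 on day 12. It was 2.28-fold higher on day 12 than on day 0 (log2 fold 1.19, SE 0.13, edgeR adjusted p = 2.6e-06). It then had 54.5 and 63.2 CPM after 4 days off, 52.3 and 49.5 after 8, and 58.2 and 47.0 after 12, all below every doxycycline library and above both day 0 libraries. At 12 days off Bak1 was 1.82-fold below day 12 (log2 fold -0.86, SE 0.13, edgeR adjusted p = 4.6e-05), with -1.02 without library A. Against day 0 it was not called (log2 fold 0.33, SE 0.13, edgeR adjusted p = 0.062), but was called with RLE size factors (adjusted p = 0.037), with DESeq2 (0.034) and without library B of that time (0.55, adjusted p = 0.0019). From day 4 to day 12 its log2 fold was 0.37 (SE 0.13, edgeR adjusted p = 0.045), a call lost with library size alone and without day 4 library A or either day 12 library (adjusted p = 0.15 to 0.38).

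Bax had 54.3 and 55.2 CPM on day 0 and stayed between 56.2 and 62.9 in the 6 doxycycline libraries of total cells. Bax is Entrez gene 12028, on chromosome 7 from 45461695 to 45466903 (GRCm38). It was not called at any time on doxycycline by the edgeR fit, and on day 12 its log2 fold was 0.06 (SE 0.14, edgeR adjusted p = 0.70). It had 61.0 and 55.2 CPM after 4 days off, 56.1 and 52.1 after 8, and 67.4 and 46.0 after 12. The last pair had both the highest and the lowest Bax values of all 16 libraries. Against day 12, its log2 fold after 12 days off was -0.02 (SE 0.14, edgeR adjusted p = 0.93), but it was called lower without library A (-0.32, adjusted p = 0.012) and higher without library B (0.27, adjusted p = 0.023). Against day 0 it was 0.05 (edgeR adjusted p = 0.81), and 0.38 (adjusted p = 0.0038) without library B. With the length trend removed, Bax was called higher than day 0 on days 4, 8 and 12 (log2 folds 0.48, 0.46 and 0.46, adjusted p = 2.6e-05, 5.7e-05 and 3.8e-05). It was then called lower than day 12 after 4, 8 and 12 days off (-0.22, -0.38 and -0.59, adjusted p = 0.022, 0.00025 and 2.3e-06). The calls of Bax, the shortest member, thus depend on how length is treated and, after 12 days off, on which library is used. Levels per kilobase of gene length put Bak1 at 0.332 ± 0.00299 of Bax on day 0, 0.725 ± 0.022 on day 12 and 0.410 ± 0.0486 after 12 days off.

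Survival and death genes were then summed as CPM per kilobase of gene length, so that genes of unequal length could be set side by side. The 3 survival genes summed to 83.1 ± 1.09 on day 0, 122 ± 1.84 on day 4, 120 ± 2.29 on day 12 and 76.6 ± 4.34 after 12 days off. The 7 death genes summed to 188 ± 0.565, 206 ± 5.45, 216 ± 2.43 and 201 ± 42.5. The survival sum was therefore higher in all 6 doxycycline libraries of total cells (118 to 128) than in the other libraries of total cells (73.5 to 89.5). The ratio of survival to death sums was 0.443 ± 0.00447 on day 0, 0.590 ± 0.00668 on day 4, 0.558 ± 0.0169 on day 12 and 0.392 ± 0.105 after 12 days off. The last group was split, at 0.318 in library A and 0.467 in library B, so that one library lay below and one above day 0. As log2 of the ratio, day 12 minus day 0 was 0.33. This difference was 0.01 when each member had equal weight and 0.22 without Mcl1, so it depends on how the members are weighted. These sums are descriptions of RNA and were given no test.

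The make-up of the survival sum changed as well. Bcl2 made up 13.2% of it on day 0, 3.21% on day 4, 6.23% on day 12 and 7.91% after 12 days off. Mcl1 made up 76.3%, 83.1%, 78.2% and 80.3%, and Bcl2l1 10.5%, 13.6%, 15.6% and 11.8%. Per kilobase, Mcl1 stood 5.85 ± 0.95 times above Bcl2 on day 0, 25.9 ± 1.31 times on day 4 and 10.3 ± 1.86 times after 12 days off. Bcl2l1 was 0.797 ± 0.0602 of Bcl2 on day 0 and 2.50 ± 0.143 times Bcl2 on day 12. Among the death genes Bax had the largest share at each of these times, 33.6% on day 0 and 30.6% on day 12, and Bak1 went from 11.2% to 22.1%. Bbc3 made up 5.10% of the death sum on day 12 and 12.5% after 12 days off, with 13% in library A and 12.0% in library B.

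**Figure D5:**
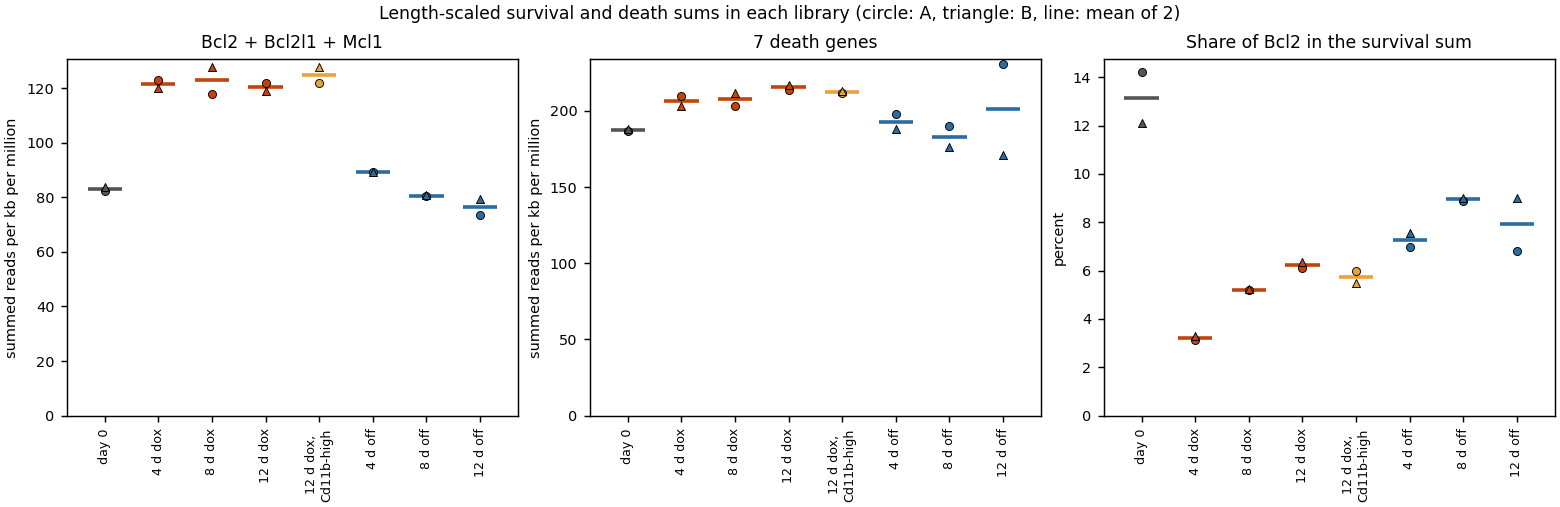
Summed CPM per kilobase of gene length of the 3 survival genes (left) and the 7 death genes (middle), and the percent of Bcl2 in the survival sum (right), in every library (circles A, triangles B, line at the mean of 2). The survival sum is 118 or more in all libraries on doxycycline and at most 89.5 in the others, and the 2 libraries of 12 days off differ most in the death sum.

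Sorting for Cd11b, the integrin chain encoded by Itgam, made no difference that was called in the members. Of the 10, 0 were called between Cd11b-high and total cells on day 12 by edgeR, by DESeq2 or by limma-voom, and 0 had an unadjusted edgeR p under 0.05. Over all genes 0.0146% were called by edgeR, and 309 had an unadjusted p under 0.05. Member log2 folds lay between -0.08 and 0.08, with SE between 0.10 and 0.19. Itgam itself was not called in this comparison (log2 fold 0.39, SE 0.16). It had 912 ± 40.2 CPM in the sorted cells and 694 ± 35.3 in total cells of day 12, beside 1.59 ± 0.252 on day 0. The 2 groups thus differed little in RNA of the sorted marker. Bcl2 had 56.5 and 54.2 CPM in the sorted cells beside 57.6 and 58.5 in total cells. Pmaip1 had 49.2 and 45.7 beside 48.9 and 49.9, and Bak1 92.3 and 95.0 beside 95.9 and 95.3.

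At 4 days off, 4 members were lower than day 12 and 0 higher, while 36.8% of all genes were called (18.0% higher, 18.8% lower). At 8 days off 5 were lower and 1 higher, beside 55.9% of all genes (28.7% higher, 27.2% lower). At 12 days off 4 were lower and 1 higher, beside 65.3% (32.9% higher, 32.4% lower). The number of members called is near the background each time, and the comparisons share the day 12 libraries. Pmaip1, Bcl2l1, Mcl1 and Bak1 were lower at all 3 times, and Bbc3 was the member that was higher after 8 and 12 days. With the length trend removed, 8 members were called after 12 days off. The share of all genes called in that fit is not given, so this count has no background beside it. Against day 0, 4 members were called after 12 days off, with Bbc3, Bcl2l11 and Pmaip1 higher and Bcl2 lower, against 43.6% of all genes (21.6% higher, 22.0% lower). That count was 2 with the 4 libraries alone and 2 to 6 when 1 library was left out.

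The other genes of the pathway were taken from lists. Their counts stand beside 30.0% of all genes higher and 33.4% lower on day 12 than on day 0, and 32.9% higher and 32.4% lower after 12 days off than on day 12. A further list had 11 genes with counts, of the BCL2 family or related to it (Bclaf1 is related but not a member). Of these, 5 were higher and 4 lower on day 12 than on day 0 (median log2 fold 0.30). After 12 days off, 3 were higher and 3 lower than on day 12 (median 0.06). Over all genes the medians were -0.07 and 0.00. Bnip3, which encodes a BH3-like protein of mitophagy, had 103 ± 4.28 CPM on day 0, 58.7 ± 1.88 on day 12 and 545 ± 24.4 after 12 days off. Its log2 fold of 3.21 against day 12 (SE 0.23, edgeR adjusted p = 3.6e-08) was larger than that of any of the 10 members in this comparison. Its relative Bnip3l went from 133 ± 2.12 to 247 ± 27.2 CPM over the same step (log2 fold 0.90, SE 0.16, edgeR adjusted p = 0.00016). Bik, a BH3-only gene, and Bcl2l14 rose on doxycycline at low levels, Bik from 3.17 ± 0.827 CPM on day 0 to 7.86 ± 0.986 on day 12. After 4 days off neither was called against day 12 (log2 folds 0.13 and -0.13), and Bik stood at 8.59 ± 0.901 CPM. Both were called lower than day 12 after 8 and 12 days off, with Bik at 3.03 ± 0.927 CPM after 12. Bcl2l2, the gene of the survival protein BCL-W, went from 27.7 ± 1.95 CPM on day 0 to 39.1 ± 2.59 on day 12 (log2 fold 0.50, SE 0.14, edgeR adjusted p = 0.0046) and stood at 38.8 ± 8.71 after 12 days off. Bclaf1 was lower on day 12 by a log2 fold of -0.36 (edgeR adjusted p = 0.011, and 0.065 without day 12 library A). The call of Bcl2l12 (-0.30, edgeR adjusted p = 0.03) was lost when any 1 of the 4 libraries was left out (adjusted p = 0.076 to 0.13), with RLE factors (0.07) and with DESeq2 (0.091), and its fold was 0.01 with the length trend removed.

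Downstream of the mitochondrion, 8 of 19 apoptosome, caspase and inhibitor genes were higher and 6 lower on day 12 than on day 0 (median log2 fold 0.20), and 8 were higher and 8 lower after 12 days off than on day 12 (median -0.18). Over all genes 63.4% and 65.3% were called in these comparisons. Apaf1, the scaffold of the apoptosome, had 76.2 ± 1.18 CPM on day 0, 231 ± 2.21 on day 12 and 54.2 ± 15 after 12 days off. Casp9, the initiator caspase it recruits, had 30.1 ± 0.645, 91.2 ± 1.95 and 55.0 ± 9.14 CPM. Xiap, an inhibitor of caspases, rose alongside them from 72.5 ± 4.29 to 167 ± 0.00228 CPM and stood at 52.3 ± 21.9 after 12 days off. The log2 folds on day 12 were 1.60 for Apaf1 (SE 0.15, edgeR adjusted p = 4.1e-07), 1.60 for Casp9 (SE 0.13, edgeR adjusted p = 6.7e-08) and 1.20 for Xiap (SE 0.20, edgeR adjusted p = 9.2e-05). Htra2, a mitochondrial protease that opposes XIAP once released, went the other way, from 129 ± 0.82 to 49.0 ± 3.06 and back to 115 ± 9.2 CPM. Dffb, the caspase-activated nuclease gene, followed Htra2 with 39.3 ± 1.21, 18.6 ± 0.138 and 35.8 ± 1.06 CPM. Diablo, the gene of another XIAP antagonist, was 88.3 ± 0.0656 CPM on day 12 and 175 ± 44.5 after 12 days off, and Casp8, the initiator caspase of death receptors, went from 111 ± 0.701 to 64.4 ± 0.322. Cycs, the cytochrome c gene, fell on day 12 by a log2 fold of -1.25 (SE 0.21, edgeR adjusted p = 0.00013), but it has many pseudogene copies that can share its reads.

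Of 8 genes of TNF and death receptor signalling, both receptors and their partners, 4 were higher and 0 lower on day 12 than on day 0 (median log2 fold 0.32). The death receptor gene Fas was not called there (log2 fold 0.02, SE 0.17). After 12 days off, 1 of the 8 was higher and 5 lower than on day 12 (median -0.34). That count of 6 was 3 with the 4 libraries alone. The all-gene shares are again 30.0% higher and 33.4% lower, then 32.9% and 32.4%. Tnfrsf1a, a TNF receptor gene, had 61.9 ± 11.8 CPM on day 0, 141 ± 5.06 on day 12 and 81.4 ± 8.85 after 12 days off. Tnfrsf1b, the other TNF receptor gene, and Ripk1, a kinase below them, were also higher on day 12, by log2 folds of 0.73 and 0.70, and lower after 12 days off, by -0.63 and -0.87. Tradd, an adaptor gene, was called higher after 12 days off (log2 fold 0.43), which was lost without library A of that time (0.14), with the length trend removed (0.11), with the 4 libraries alone (adjusted p = 0.15) and without either day 12 library (0.068 and 0.06). Of 17 upstream regulators, 6 were higher and 5 lower on day 12 (median 0.07), and 6 were higher and 8 lower after 12 days off than on day 12 (median -0.31), beside the same all-gene shares. The latter count of 14 was 7 with the 4 libraries alone, 9 with the length trend removed, and 8 and 9 without day 12 library A and B. Myc had 339 ± 6.74 CPM on day 0, 183 ± 4.38 on day 12 and 455 ± 6.02 after 12 days off. Atf4 and Ddit3, genes of the integrated stress response, were lower on day 12 by log2 folds of -0.86 and -1.06. Both were higher after 12 days off, Atf4 by 0.87 and Ddit3 by 0.56 (SE 0.22, edgeR adjusted p = 0.038). The Ddit3 libraries of 12 days off were spread, at 35.0 ± 12.5 CPM beside 23.6 ± 0.3 on day 12. The kinase genes Akt1 and Pim2, whose products promote survival, rose on day 12 by 1.07 and 0.89, and Pim1 fell from 1420 ± 29.6 to 892 ± 64 CPM after withdrawal. Usp9x, which encodes a deubiquitinase of MCL1, and Foxo3, a factor that drives Bcl2l11, were called lower after 12 days off than on day 12 (log2 folds -0.78 and -0.70), and both calls were lost with the 4 libraries alone (adjusted p = 0.17 and 0.18). The Usp9x fold was -0.29 (adjusted p = 0.094) without library A of 12 days off and -0.21 (0.11) with the length trend removed, its adjusted p was 0.063 and 0.07 without day 12 library A and B, and that of Foxo3 was 0.057 without day 12 library B.

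The genes most like each member were found by the Pearson correlation of log2(CPM + 1) over the 16 libraries, among 9070 genes whose mean reached 10 CPM. The libraries share groups, so these values are descriptions. Mcl1 was most like Cd34 (r = 0.988) and Sgk3, and 755 genes had an r over 0.9 with it. Bak1 was most like Sqstm1 (0.987), with 636 genes over 0.9, and Bcl2l1 most like Flii (0.984), with 573. Pmaip1 was most like Pon3 (0.987), Bbc3 most like Fam114a2 (0.976) and Bid most like Trabd (0.98). Fewer genes resembled the others: 12 had an r over 0.9 with Bad (Fis1 first, 0.969), 4 with Bcl2l11 (Nyap1 first, 0.927) and 3 with Bcl2 (Cep164 first, 0.938). Bax had 0, and its nearest gene was Myl6 (0.868).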

How the data were processed

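Per the file headers, the deposited files hold the authors' read counts per Entrez gene and gene lengths; the submitters' processing notes name featureCounts, edgeR, limma and mm10. RefSeq symbols matched 13216 of 13652 genes. The members and gene lists were chosen with earlier results of these data known.

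TMM factors scaled the counts, and edgeR 4.0.16 (R 4.3.3, limma 3.58.1) fitted the 8 group means to the 16 libraries together and tested them by quasi-likelihood. Benjamini-Hochberg adjustment ran over all 13652 genes, two-sided, and genes were called at an adjusted p under 0.05. The 8 planned comparisons and 1 added (day 12 against day 4) share the day 0 and day 12 libraries. Other pathway genes were named by rule: up to 3 called rises and 3 falls per list with the largest fold and a mean of at least 5 CPM, with Trp53, Mdm2 and Cdkn1a always. Alternatives were RLE factors, library size alone, no low-count filter, DESeq2 1.42.0, limma-voom, a replicate block, the 4 libraries compared, leaving out each library, and removal of a loess trend (span 0.5) over gene length. The length step was added after seeing the data. The script was tested on simulated data.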

Additional observations from a re-analysis of the deposited data

How the results depend on the processing

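Of 1080 alternative values of member log2 folds, 984 kept their direction and side of the threshold, 22 lost a call, 28 gained one and 46 changed sign, of which 0 had been called. The low-count filter removed 0 genes, so the alternative without it repeated the main fit. Its values are among the 984 and could not have differed. With 2 libraries per group, 1 library can decide a value, and folds near 0 have no firm sign. The labels do not say whether the replicate letters pair the libraries. The A minus B differences correlated by over 0.1 in 8 of 28 pairs of groups (median 0.00777, from -0.0907 to 0.264), so the letters were not used as pairs. With a replicate block the members called stayed at 7 on days 4, 8 and 12, and at 4, 6 and 5 after 4, 8 and 12 days off.

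Members called in 12 days off against day 12 went from 5 to 8 with the length trend removed, and ranged from 5 to 8 when 1 library was left out. In 12 days off against day 0 they went from 4 to 2 with the 4 libraries alone (2 to 6 with 1 library left out). In day 12 against day 4 they went from 4 to 2 with library size alone (2 to 3). The survival to death log2 ratio of day 12 against day 0 went from 0.33 to 0.10 on CPM without length scaling, 0.01 with equal weight and 0.22 without Mcl1. That of 12 days off against day 0 was -0.20, -0.52 with equal weight, and -0.48 to 0.07 with 1 library left out. Of the upstream regulators called in 12 days off against day 12, 14 became 9 with the length trend removed. The causes were not tested.

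Signs changed in these log2 folds, and those under the alternative were called only where said. As reported, none had been called except that of Bcl2l12 in day 12 against day 0. With the length trend removed, Bad was 0.02 and Bcl2l12 0.01 in day 12 against day 0, and Bid was 0.0046 and Bax 0.02 in the Cd11b-high comparison. Under the same step Bcl2l11 was 0.0041, Bad -0.11 and Bax -0.22 (called) after 4 days off, Bcl2 0.15 and Bcl2l11 0.01 after 8, and Bcl2 0.22 (called) and Bcl2l11 0.20 after 12, each against day 12. Against day 0, Mcl1 was 0.01 and Bax -0.13 after 12 days off. With library size alone, Bad was -0.01 in day 8 and Bax -0.07 in day 12 against day 0. Against day 12, Bcl2 was 0.09 and Bax 0.06 after 8 days off and Bax 0.09 after 12. Bbc3 was -0.01 and Pmaip1 -0.02 in day 12 against day 4. After 4 days off against day 12, Bad was -0.02 with RLE factors and with DESeq2, -3.6e-05 with a replicate block and -0.00091 with the 4 libraries alone, and Bax -0.0047 with RLE factors and with DESeq2. Bax was 0.00061 after 12 days off against day 12 with the 4 libraries alone. Mcl1 was 0.0031 with RLE factors and 0.0036 with DESeq2 after 12 days off against day 0.

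With 1 library left out, Bad ranged from -0.0031 to 0.08 in day 8 against day 0, and Bcl2l1 from -0.09 to 0.01 and Bid from -0.05 to 0.02 in the Cd11b-high comparison. Against day 12, Bad ranged from -0.07 to 0.08 and Bax from -0.05 to 0.09 after 4 days off, and Bad from -0.70 (called) to 0.17 and Bax from -0.32 to 0.27 (both called) after 12. After 12 days off against day 0, Bcl2l1 ranged from -0.18 to 0.29, Mcl1 from -0.10 to 0.03, Bid from -0.22 to 0.10, Bad from -0.85 to 0.06 and Bax from -0.25 to 0.38 (called at -0.22, -0.85 and 0.38). Bax ranged from -0.14 to 0.0025 in day 12 against day 4.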
